A study of Mus musculus with 10 samples.

Results

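The ATF4 amino acid stress response was followed through 10 genes in cultured mouse erythroleukemia (MEL) cells, a line of red cell precursors transformed by a virus. The genes are Atf4, Ddit3, Trib3, Asns, Psat1, Phgdh, Slc1a4, Slc7a11, Chac1 and Sesn2, each read through the probe sets whose platform symbol is that gene alone. They were chosen by name, with earlier results of these data known, so their counts below are not independent of these data. They are read by 23 probe sets, of which 21 passed the filter on dim probe sets, and all 10 genes kept at least 1. This is 10 of 18193 genes with a probe set of their own, and 10 of the 12502 genes tested. Total RNA was hybridised to 10 Affymetrix mouse genome arrays. The parental line, Mel-BirA, carries the BirA enzyme, a bacterial biotin ligase, and was measured on 2 arrays. The 4 subclones (FBB1.5, FBB1.7, FBB1.10, FBB1.11) come from this line, carry BirA as well, and stably express FLAG-Biotag-BCL11A, a tagged form of a zinc finger transcriptional repressor. Each subclone was measured on 2 arrays, so each stands for 1 clone, and the labels do not say whether both arrays of a line are separate cultures. The labels give no treatment, time or dose.

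ATF4 is a bZIP transcription factor whose mRNA is translated more when the initiation factor eIF2alpha is phosphorylated. The kinases that do so are GCN2, which responds to amino acid shortage, PERK, which responds to misfolded protein in the endoplasmic reticulum, PKR, and HRI, the heme-sensing kinase that is prominent in red cell precursors. ATF4 then binds C/EBP-ATF response elements and raises genes for amino acid synthesis and uptake, redox balance and, with CHOP, cell death. Arrays read mRNA and not translation, so the amount of ATF4 protein was not measured here.

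The core of that element was searched for in the promoters of the 10 genes, to show which of them carry it close to the transcript start. The letters searched were TGATGNAA, on both strands, in RefSeq windows of 250 bases before to 50 bases after the start (assembly GRCm38.p6). All 10 genes had a window, and 5 of them held the core, at 6 places. Of all 27025 genes with a window, 4.51% held it. The letters follow the element as found in Asns, Ddit3 and Trib3, which are among the 10 genes. The count in the 10 genes is therefore no independent test against the share of all genes. The stretches are printed along the strand of the gene, 5′ to 3′, with the matches in capitals.
Asns, chr6:7693200-7693262, minus strand: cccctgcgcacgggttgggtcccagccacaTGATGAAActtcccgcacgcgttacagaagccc
Trib3, chr2:152344028-152344057, minus strand: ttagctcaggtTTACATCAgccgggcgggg
Chac1, chr2:119351019-119351086, plus strand: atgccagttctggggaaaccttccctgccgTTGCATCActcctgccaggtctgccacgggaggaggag
Slc1a4, chr11:20332704-20332747, minus strand: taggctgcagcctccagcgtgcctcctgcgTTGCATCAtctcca
Slc7a11, chr3:50443623-50443709, minus strand: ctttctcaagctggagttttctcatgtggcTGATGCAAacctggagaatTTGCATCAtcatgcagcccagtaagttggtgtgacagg
Counted from the transcript start, the Asns match began at -23, the Chac1 match at -193 and the pair of Slc7a11 matches at -66 and -47. The Slc1a4 match ran from -4 to 4, across the start, and the Trib3 match lay after it, from 15 to 22. The windows of Atf4, Ddit3, Sesn2, Psat1 and Phgdh held none of these letters in that order, which says nothing of other spellings or of sites outside the window.

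**Figure D1:**
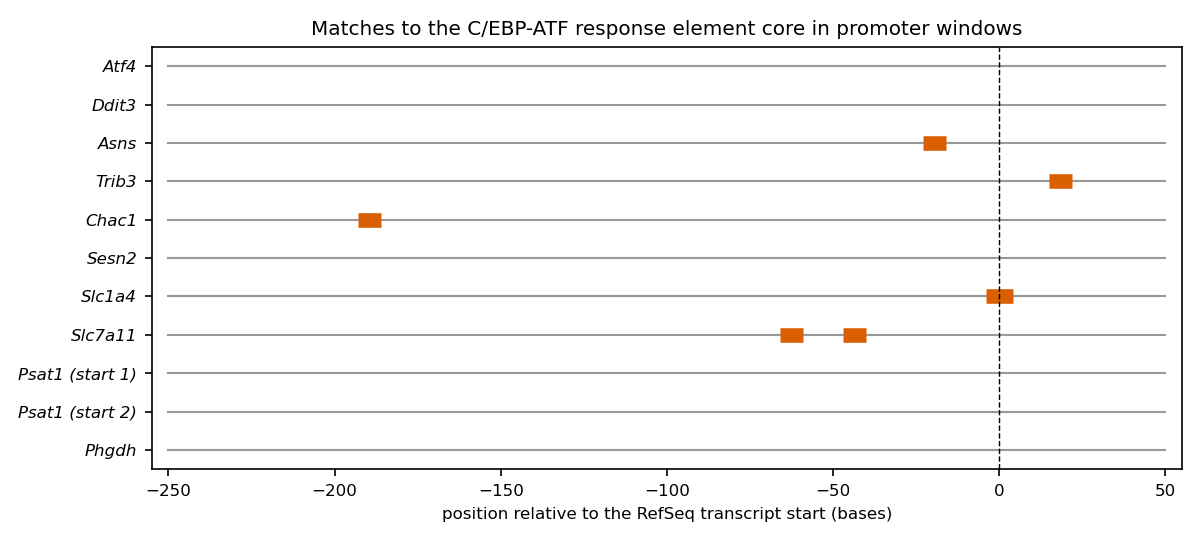
Each grey line is a RefSeq promoter window of 1 gene, from 250 bases before to 50 bases after the transcript start (horizontal axis, bases, dashed line at the start), and orange blocks are matches to the core. Asns, Trib3, Chac1 and Slc1a4 have 1 match each, Slc7a11 has 2, and the other 5 genes have none.

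Before the results, 2 arrays stood apart in a sign of RNA quality. The 3′ to 5′ ratio of the actin control probe sets was 1.80 in parental array 2 and 1.47 in FBB1.5 array 1, against 1.06 to 1.22 in the other 8. Array medians were close, at 29.6 to 31.6 intensity units. Of 14 erythroid marker genes, 12 were on the array, by 10 probe sets. Of these 10 probe sets, 8 lay above the table median of 30.5 on all arrays (Gata1, Klf1, Hba-a1, Hbb-b1, Alas2, Epor, Tfrc and Nfe2). Slc4a1, Epb42 and Ahsp are not among the 8, either for a lower reading or for want of a probe set. The summed intensity of 10 mast cell genes ranged from 1024 to 6851 over the arrays. Its line means were 6276 in parental cells, then 5893, 1091, 2521 and 1874 in the subclones by rising number, and its part in the results below was not tested.

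Against the parental line, Atf4, Asns, Psat1 and Slc1a4 were each higher in 2 or 3 of the 4 subclones, and Ddit3 was lower in FBB1.5. FBB1.10 had the most changed genes of the 10 and FBB1.11 had none. In FBB1.5, 3 of the 10 genes were higher (Atf4, Slc1a4 and Psat1) and 1 was lower (Ddit3), by limma with Benjamini-Hochberg adjustment over all probe sets. Over all genes tested, 1.38% were higher and 0.992% lower in FBB1.5. In FBB1.7, 3 were higher (Asns, Slc1a4 and Psat1) and 0 lower, where 4.29% of all genes were higher and 6.39% lower. In FBB1.10, 5 were higher (Atf4, Asns, Trib3, Slc1a4 and Psat1) and 0 lower, where 0.936% of all genes were higher and 0.872% lower. In FBB1.11, 0 of the 10 passed, where 0.064% of all genes were higher and 0.12% lower. At an unadjusted p under 0.05, 2 of the 10 genes (Slc1a4 and Psat1) and 1488 of all genes differed in FBB1.11 in limma's fit. Chac1, Sesn2, Slc7a11 and Phgdh passed in no subclone. None of these calls passed when the variance model had no intensity trend, and without the intensity filter 0, 1 and 2 of the 10 genes passed in FBB1.5, FBB1.7 and FBB1.10, in place of 4, 3 and 5.

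The median log2 difference of the 10 genes was 0.14, 0.21, 0.38 and 0.11 in the subclones by rising number (FBB1.5 first, FBB1.11 last). The median over all genes tested was 0.01, -0.01, 0.00 and 0.00 in the same order. In FBB1.10 all 10 genes lay above 0, and in each of the other subclones 9 of 10 did, where 47.6% to 52.8% of all genes did. These differences are of log2(intensity + 16), which understates the change of dim genes, and the 4 comparisons share the parental arrays. The counts above 0 depended on single parental arrays. Without parental 1, Phgdh turned below 0 in every subclone, and Trib3 in FBB1.5, FBB1.7 and FBB1.11. Slc7a11 did so in FBB1.5 and FBB1.11 and Atf4 in FBB1.11, while Sesn2 turned above 0 in FBB1.7. Without parental 2, Sesn2 turned below 0 in FBB1.5 and FBB1.10.

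**Figure D2:**
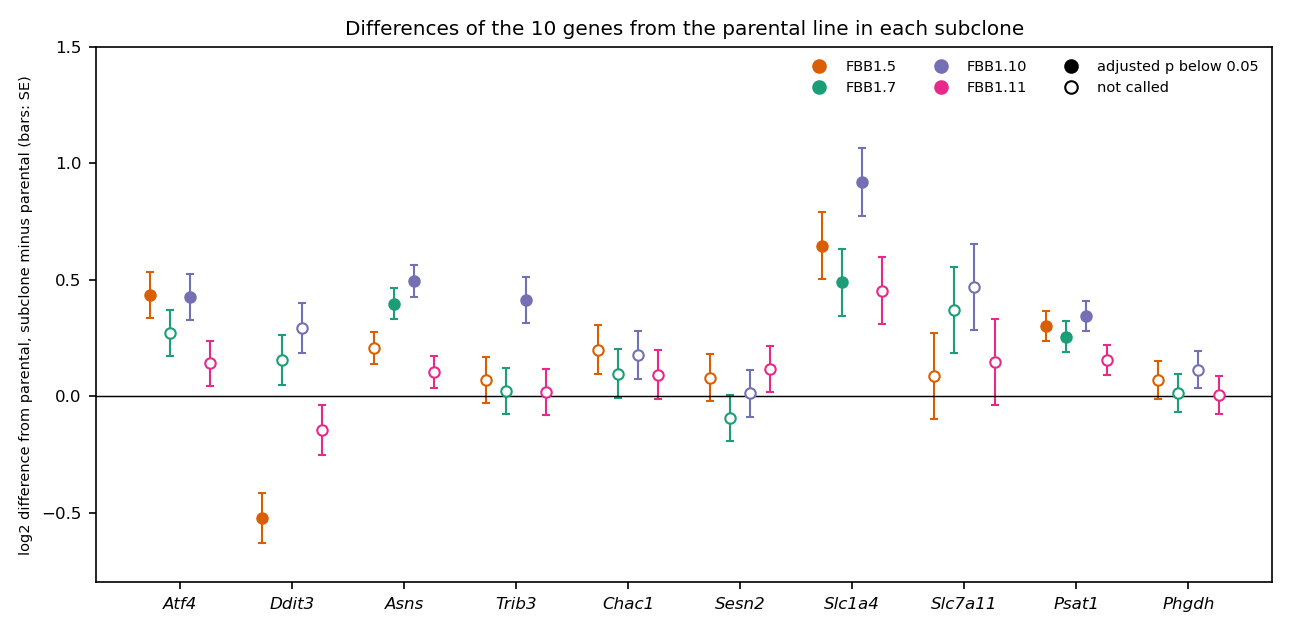
The vertical axis gives the log2 difference of each subclone from the parental line, with its standard error, for the brightest probe set of each of the 10 genes, and filled points passed at an adjusted p below 0.05. Slc1a4 in FBB1.10 is the highest point at 0.92, Ddit3 in FBB1.5 the lowest at -0.52, and no FBB1.11 point is filled.

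Averaged over the 4 subclones, the brightest probe sets of Atf4, Asns, Slc1a4 and Psat1 read higher than in the parental line. These 4 of the 10 genes passed, and 0 were lower, in the fit of 5 line means, where 1.82% of all genes were higher and 1.95% lower. The Atf4 call for the mean held in 4 of 10 fits with 1 array left out, and ended without parental 1, either FBB1.11 array, FBB1.10 1, FBB1.7 2 or FBB1.5 2. It also ended with FBB1.5, FBB1.7 or FBB1.10 left out of the mean, and under quantile normalization, median centring, no filter, no trend and array weights (limma's adjusted p from 0.0046 to 0.29 over its alternatives). Second probe sets of Atf4, Slc1a4 and Psat1 also passed for the mean (limma's adjusted p = 0.036, 0.048 and 0.014). The second one of Asns (0.19, limma's adjusted p = 0.14) and the remaining one of Slc1a4 (0.09, adjusted p = 0.79) did not. The fit of 5 line means sets the clones against the spread between arrays of 1 line and says nothing of further clones. With the line as a random block, 0 of the 10 genes and 0% of all genes passed in limma. The block uses 1 correlation for all probe sets and the parental side is 1 line, so clones are only in part the units. In that fit 4 of the 10 genes (Atf4, Asns, Slc1a4 and Psat1) and 1044 of all genes had an unadjusted p under 0.05. Without a test, 3 of the 10 genes (Chac1, Slc1a4 and Psat1) had all 8 tagged arrays above both parental arrays, and 5.14% of all genes did.

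Among the 3 regulators, Atf4 and Trib3 were higher in FBB1.10 and Ddit3 was lower in FBB1.5. Atf4, the transcription factor itself, is on chromosome 15. Its brightest probe set read 1310 and 1653 on the parental arrays, 1975 and 2015 in FBB1.5, and 1698 and 1867 in FBB1.7. It read 2118 and 1855 in FBB1.10 and 1663 and 1587 in FBB1.11. All arrays of FBB1.5, FBB1.7 and FBB1.10 lay above both parental arrays, FBB1.11 overlapped the parental line, and the levels of FBB1.7, FBB1.10 and FBB1.5 followed each other in that order with no neighbours apart beyond their spread. The log2 difference was 0.43 ± 0.10 (SE) in FBB1.5 and 0.43 ± 0.10 in FBB1.10, and limma's adjusted p was 0.033 and 0.04. FBB1.7 had 0.27 (adjusted p = 0.096) and FBB1.11 0.14 (adjusted p = 0.61), which did not pass in limma.

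A second Atf4 probe set passed by limma in FBB1.10 (0.34, adjusted p = 0.035) and FBB1.7 (0.30, adjusted p = 0.021), and not in FBB1.5 (0.18, adjusted p = 0.29). So both Atf4 probe sets passed in FBB1.10 and 1 of them in each of FBB1.5 and FBB1.7. The remaining Atf4 probe set was under the filter on all arrays. The call of the brightest Atf4 probe set in FBB1.10 held in 1 of 10 fits that leave out 1 array, namely without parental 2, and the limma adjusted p over the alternatives on that probe set ran from 0.0037 to 0.30. In FBB1.5 it held in 5 of 10, and ended without parental 1, FBB1.5 1, FBB1.5 2, FBB1.11 1 or FBB1.11 2 (limma's adjusted p from 0.0032 to 0.22 over the alternatives on this probe set). In FBB1.7 it passed without parental 2.

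Ddit3 encodes CHOP, the bZIP factor that ATF4 raises under lasting stress, and is on chromosome 10. Its intensity was 1816 and 2174 on the parental arrays and 1459 and 1301 in FBB1.5. FBB1.7 had 2431 and 2016, FBB1.10 had 2668 and 2230, and FBB1.11 had 1797 and 1795. Both FBB1.5 arrays were below the other 8 arrays, both FBB1.10 arrays were above both parental arrays, and FBB1.7 overlapped the parental line.

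Ddit3 fell in FBB1.5 by 0.52 on the log2 scale (SE 0.11, limma's adjusted p = 0.02). The brightest Atf4 probe set was called higher in that subclone, and in FBB1.10 too, while the second Atf4 probe set did not pass in FBB1.5. Ddit3 did not pass in FBB1.10 (0.29 ± 0.11, adjusted p = 0.19), FBB1.7 (0.16, adjusted p = 0.41) or FBB1.11 (-0.14, adjusted p = 0.64) by limma. The 4 subclones differed from each other in Ddit3 (moderated F test, adjusted p = 0.001). This F test called 3 of the 10 genes, Ddit3, Asns and Trib3, and 8.06% of all genes. The fall in FBB1.5 did not pass without parental 2 or without FBB1.5 2, nor without parental 2 and FBB1.5 1 together. Parental 2 and FBB1.5 1 are the arrays with the raised actin ratio. For the fall of Ddit3, limma's adjusted p over the alternatives on this probe set ran from 0.0057 to 0.19. A dimmer Ddit3 probe set, at 64.2 to 138 units, passed in no subclone (-0.22 in FBB1.5, limma's adjusted p = 0.69).

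Trib3 encodes a pseudokinase that ATF4 and CHOP raise and that restrains ATF4, and is on chromosome 2. It read 555 and 630 on the parental arrays and 789 and 796 in FBB1.10. The other 6 tagged arrays lay between 563 and 642. Both FBB1.10 arrays were above all others, and FBB1.5, FBB1.7 and FBB1.11 overlapped the parental line. The log2 difference in FBB1.10 was 0.41 ± 0.10 (limma's adjusted p = 0.045), against 0.07, 0.02 and 0.02 in the other subclones by rising number.

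The subclones differed in Trib3 by both of its probe sets (moderated F test, adjusted p = 0.042 and 0.021). The second one read 694 and 801 in FBB1.10 and 520 to 605 on all other arrays, and missed the threshold against the parental line (0.35, limma's adjusted p = 0.092). The Trib3 call in FBB1.10 held in 1 of 10 fits with an array left out, that without parental 2 (limma's adjusted p from 0.031 to 0.21 over the alternatives on this probe set). The F test call of the brighter probe set ended without any 1 of the 8 tagged arrays.

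**Figure D3:**
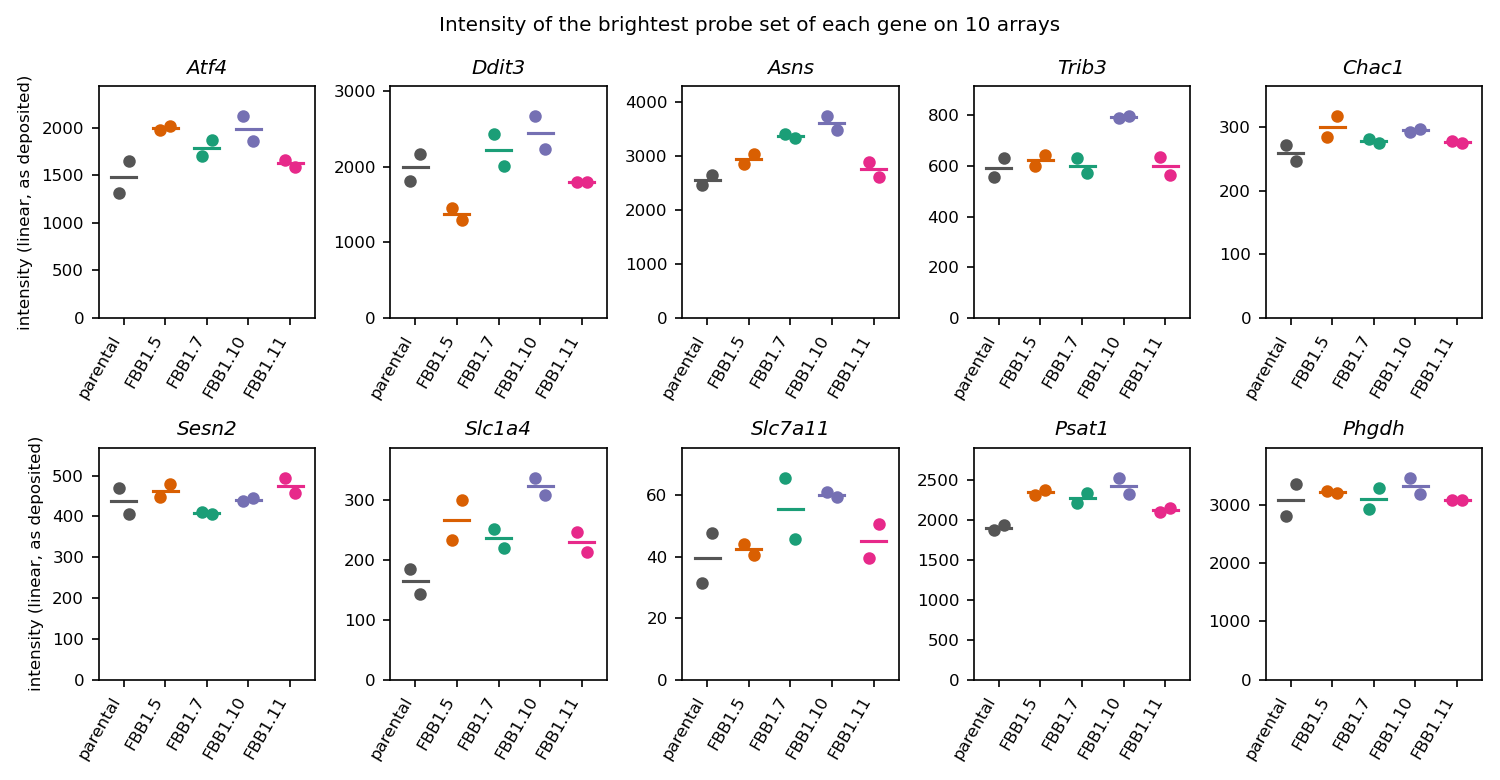
Each panel shows 1 gene, with the deposited intensity of its brightest probe set on a linear axis from 0, 1 point per array and a bar at the mean of the 2 arrays of a line. Trib3 is highest in FBB1.10, at 789 and 796, Ddit3 is low in FBB1.5, at 1459 and 1301, and all 8 tagged points lie above both parental points for Chac1, Slc1a4 and Psat1. Levels are not comparable between panels, since each gene is read by its own probes.

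Among the enzymes, Asns had the firmest calls. It encodes asparagine synthetase, the classic target of the amino acid response, and is on chromosome 6. Its intensity was 2453 and 2650 on the parental arrays, 3393 and 3337 in FBB1.7, and 3730 and 3477 in FBB1.10. It was 2853 and 3041 in FBB1.5, and 2884 and 2608 in FBB1.11. The order ran from parental cells through FBB1.11 and FBB1.5 to FBB1.7 and FBB1.10. FBB1.11 overlapped both the parental line and FBB1.5, although both FBB1.5 arrays lay above both parental arrays. FBB1.7 lay above these 3 lines without overlap, and FBB1.10 above FBB1.7.

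Asns was higher by 0.40 ± 0.07 in FBB1.7 and 0.49 ± 0.07 in FBB1.10 (limma's adjusted p = 0.0018 and 0.0019), which is 1.32-fold and 1.41-fold. Asns did not pass by limma in FBB1.5, at 0.21 (adjusted p = 0.14), or FBB1.11, at 0.10 (adjusted p = 0.58). The Asns calls in FBB1.7 and FBB1.10 each held in 10 of 10 fits that leave out 1 array. The subclones differed in Asns (moderated F test, adjusted p = 0.0059), also by its second probe set (0.018). That probe set passed in FBB1.10 (0.41, limma's adjusted p = 0.024) and missed the threshold in FBB1.7 (0.27, adjusted p = 0.059).

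Psat1 and Phgdh encode enzymes of serine synthesis from a glycolytic intermediate. Psat1, phosphoserine aminotransferase on chromosome 19, read 1876 and 1930 on the parental arrays and 2103 to 2528 on the 8 tagged arrays. The parental arrays were lowest and FBB1.11, at 2103 and 2143, came next, with no overlap with its neighbours. FBB1.7, FBB1.5 and FBB1.10 came above and were not apart from each other. The log2 difference was 0.35 in FBB1.10, 0.30 in FBB1.5 and 0.26 in FBB1.7, each ± 0.07 (limma's adjusted p = 0.017, 0.027 and 0.022).

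Psat1 was 0.16 higher in FBB1.11, which did not pass (limma's adjusted p = 0.36), and the F test between subclones did not pass for it (adjusted p = 0.27). Its second probe set passed in the same 3 subclones, at 0.40, 0.27 and 0.38 (limma's adjusted p = 0.015, 0.039 and 0.023). With 1 array left out, the Psat1 call held in 9 of 10 fits in FBB1.10 (not without FBB1.10 1) and in 7 of 10 in FBB1.7 (not without parental 1, FBB1.7 1 or FBB1.7 2). In FBB1.5 it held in 4 of 10, and ended without either array of parental, FBB1.5 or FBB1.11. The limma adjusted p over the alternatives reached 0.22 in FBB1.10, 0.24 in FBB1.5 and 0.17 in FBB1.7.

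Phgdh, phosphoglycerate dehydrogenase on chromosome 3, starts that route. It read 2802 and 3357 on the parental arrays and 2923 to 3463 on the tagged arrays, so the groups overlapped. Its log2 differences were between 0.01 and 0.11 with an SE of 0.08, and its 4 tested probe sets passed in no subclone. All 4 belong to a class of Affymetrix probe sets (suffix x) that can bind other transcripts, as do the brightest Atf4 probe set and the second ones of Asns and Trib3. Phgdh has 2 further probe sets that are shared with another gene and were not used.

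Of the transporters, Slc1a4 had the greatest differences of the 10 genes. It encodes ASCT1, which carries alanine, serine and cysteine, and is on chromosome 11. Its intensity was 186 and 144 on the parental arrays, 233 and 301 in FBB1.5, and 253 and 220 in FBB1.7. It was 338 and 309 in FBB1.10, and 247 and 213 in FBB1.11. All 8 tagged arrays lay above both parental arrays, FBB1.10 lay above the others, and the remaining 3 subclones overlapped. The log2 difference was 0.92 ± 0.15 in FBB1.10, 0.65 in FBB1.5 and 0.49 in FBB1.7 (limma's adjusted p = 0.0052, 0.033 and 0.045).

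In FBB1.11 Slc1a4 was 0.45 higher and did not pass (limma's adjusted p = 0.24), and the F test between subclones did not pass for it (adjusted p = 0.16). Its 3 probe sets did not read alike. A second one passed in FBB1.10 (0.48, limma's adjusted p = 0.043) and FBB1.5 (0.56, adjusted p = 0.018), and the remaining one in none, with log2 differences from -0.06 to 0.21. With 1 array left out the Slc1a4 call in FBB1.10 held in 9 of 10 fits (not without FBB1.10 1), in FBB1.5 in 8 of 10 (not without parental 2 or FBB1.5 2), and in FBB1.7 in 3 of 10 (parental 1, FBB1.5 1 or FBB1.5 2 left out). The call for the mean of the 4 subclones ended without parental 2.

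Slc7a11, the light chain of the cystine and glutamate exchanger that feeds glutathione synthesis, is on chromosome 3 and was dim. It read 31.4 and 47.7 on the parental arrays and 39.5 to 65.7 on the tagged arrays. FBB1.10, at 61.0 and 59.3, lay above both parental arrays, and the other 3 subclones overlapped the parental line. Its log2 difference was 0.47 ± 0.19 in FBB1.10 and 0.37 in FBB1.7, and neither passed (limma's adjusted p = 0.23 and 0.24). Its second probe set was above the table median on 1 array and was not tested.

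Chac1 and Sesn2 passed in no subclone. Chac1, an enzyme that degrades glutathione, is on chromosome 2. It read 272 and 247 on the parental arrays and 275 to 317 on the tagged arrays, which lay above both parental arrays. Its log2 differences were 0.20, 0.10, 0.18 and 0.09 in the subclones by rising number, each with an SE of 0.10, and the lowest limma adjusted p was 0.41. Sesn2, a leucine-binding inhibitor of the mTORC1 growth pathway on chromosome 4, read 469 and 407 on the parental arrays and 407 to 495 on the tagged arrays. The groups overlapped, with log2 differences from -0.09 to 0.12.

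Across the 10 arrays, the 10 genes did not all vary together. Pearson's r of log2 values with Asns was 0.83 for Psat1, 0.77 for Slc1a4, 0.74 for Atf4, 0.73 for Trib3 and 0.73 for Slc7a11. It was 0.52 for Ddit3, 0.51 for Chac1, 0.45 for Phgdh and -0.34 for Sesn2. Atf4 and Psat1 had r = 0.91 and Atf4 and Ddit3 -0.00. Of the 45 pairs, 21 were above 0.5 and 2 below -0.5, with a median of 0.49. These are descriptions over arrays that share 5 lines. Of 6863 other genes above 100 units, the most like Asns were Ncl (r = 0.96), Nars (0.95), Gars (0.95), Eif2s2 (0.95), Ppie (0.94) and Slc25a5 (0.94), where the median gene had r = -0.04. Nars and Gars encode tRNA synthetases for asparagine and glycine, Ncl a nucleolar protein and Eif2s2 a subunit of eIF2.

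The other genes of the pathway are given as counts beside the share of all genes called. Of 14 genes that control eIF2, upstream of ATF4, 13 were tested. In limma 0 of 13 passed in FBB1.5 (1.38% of all genes higher, 0.992% lower), FBB1.7 (4.29% and 6.39%), FBB1.10 (0.936% and 0.872%) and FBB1.11 (0.064% and 0.12%), and 0 in the F test (8.06%). A count of 0 is near these shares and is no result about these genes. Eif2ak4, the gene of GCN2, read 57.8 and 43.6 on the parental arrays and 33.2 to 64.2 on the tagged arrays. Its log2 differences were 0.15, -0.25, -0.39 and 0.01 in the subclones by rising number (limma's adjusted p from 0.34 to 0.99). Gcn1 had log2 differences from -0.36 to -0.12 (limma's adjusted p from 0.061 to 0.69). Eif2ak1, the gene of HRI, read 146 and 189 on the parental arrays and 112 to 165 on the tagged arrays, which overlapped. Eif2ak2, the gene of PKR, read 48.0 and 90.9 on the parental arrays and 82.9 to 106 on the tagged arrays, with log2 differences of 0.41 to 0.51 and limma's adjusted p from 0.17 to 0.42. Of 9 tested bZIP partners and stress factors, 0 passed in FBB1.5 and FBB1.11, which is near the same shares. Beside the shares above, 1 was higher and 2 lower in FBB1.7, and 1 was higher and 0 lower in FBB1.10. The F test called 4 of the 9, and 8.06% of all genes. In FBB1.7 Atf5, a bZIP factor translated like ATF4, was lower by limma (-0.76, adjusted p = 0.00042), and so was Cebpg, a dimer partner of ATF4 (-0.36, adjusted p = 0.049). Nupr1, a stress-induced chromatin protein, was higher in FBB1.10 (0.48, limma's adjusted p = 0.019) and FBB1.7 (0.56, adjusted p = 0.0016).

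Of the other serine and one-carbon enzymes, Psph was called in 3 subclones. Psph, phosphoserine phosphatase, which completes the route of Phgdh and Psat1, read 228 and 270 on the parental arrays. FBB1.5 had 379 and 380, FBB1.7 had 431 and 470, FBB1.10 had 395 and 435, and FBB1.11 had 291 and 310. All 8 tagged arrays lay above both parental arrays. Psph was higher in FBB1.5, FBB1.7 and FBB1.10 (0.58, 0.82 and 0.70, limma's adjusted p = 0.012, 0.00032 and 0.0045) and not called in FBB1.11 (0.26, adjusted p = 0.36). Of the 9 tested genes of that list, 1, 1, 2 and 0 were higher in the subclones by rising number, where 1.38%, 4.29%, 0.936% and 0.064% of all genes were, and 0 were lower. The second in FBB1.10 was Mthfd2, a mitochondrial folate enzyme (0.42, limma's adjusted p = 0.018).

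The next lists are read against 1.38% of all genes higher and 0.992% lower in FBB1.5. The same shares were 4.29% and 6.39% in FBB1.7 and 0.936% and 0.872% in FBB1.10. Of 8 other tested amino acid enzymes, 1 was higher and 1 lower in FBB1.5, namely Cth of cysteine synthesis (0.62, limma's adjusted p = 0.0092) and Oat of ornithine breakdown (-0.38, adjusted p = 0.0068). In FBB1.7, 3 were higher (Aldh18a1, Got1 and Cbs), and in FBB1.10 1 (Cbs, 0.51, limma's adjusted p = 0.049). Of 11 tested transporters, 1 was higher in FBB1.5, 2 were higher and 1 lower in FBB1.7, and 1 was higher in FBB1.10. Counts this small, beside the shares above, are no result about the list. Slc7a1, for cationic amino acids, was higher in FBB1.5 (0.53, limma's adjusted p = 0.016). Slc7a5, the LAT1 leucine carrier, was higher in FBB1.10 (0.34, limma's adjusted p = 0.042) and FBB1.7 (0.27, adjusted p = 0.044). Its partner Slc3a2 was higher in FBB1.7 (0.38, limma's adjusted p = 0.0098), where Slc38a2, a glutamine carrier, was lower (-0.33, adjusted p = 0.027).

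Of 17 tested further ATF4 targets, 1 was higher in FBB1.5 (Ero1l), 2 were higher and 2 lower in FBB1.7, and 1 was higher in FBB1.10 (Nars). The shares of all genes are as above, and counts this small are no result about the list. The FBB1.7 genes were Eif4ebp1 and Nars, higher, and Pck2 and Slc6a6, lower. Eif4ebp1 was named after its values were seen. In FBB1.11, 0 genes of any of these lists passed by limma, where 0.064% of all genes were higher and 0.12% lower, so a count of 0 says nothing of these lists. The median log2 difference of these 17 genes lay between 0.01 and 0.11 in the 4 subclones, and that of the 13 eIF2 control genes between -0.07 and 0.04.

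Genes of protein folding in the endoplasmic reticulum, which the ATF6 and XBP1 branches of the stress response control, were called in the same subclones as Asns. Of 11 tested, 6 were higher in FBB1.7, where 4.29% of all genes were, and 5 in FBB1.10, where 0.936% were. None of the 11 was lower in these subclones, and 0 passed in FBB1.5 (1.38% higher, 0.992% lower) or FBB1.11 (0.064% and 0.12%) by limma. Hspa5, the chaperone BiP, read 831 and 878 on the parental arrays, 1425 and 1380 in FBB1.7, and 1443 and 1672 in FBB1.10. It read 827 and 765 in FBB1.5, below both parental arrays, and 1007 and 1119 in FBB1.11, above both, and neither difference passed. Its log2 difference was 0.71 in FBB1.7 and 0.85 in FBB1.10 (limma's adjusted p = 0.00023 and 0.0003). The 4 subclones differed in 6 of the 11 genes by the F test, which called 8.06% of all genes. The median log2 difference of the 11 was 0.05, 0.45, 0.46 and 0.21 in the subclones by rising number.

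**Figure D4:**
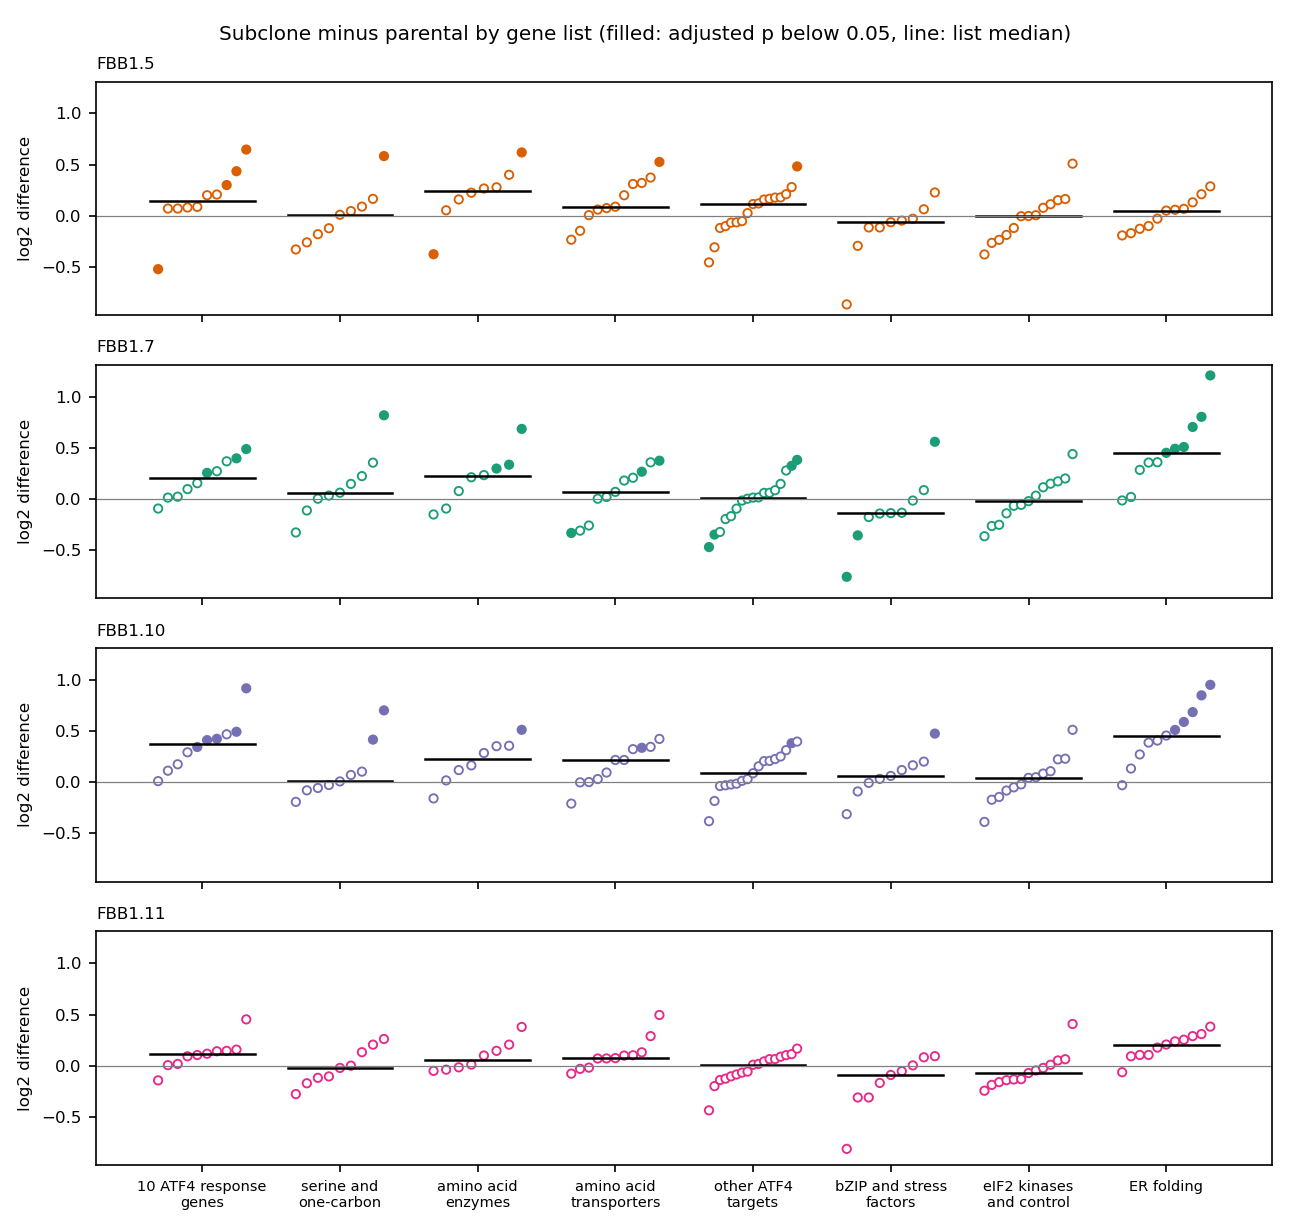
Each panel is 1 subclone and each column 1 gene list, with a point per gene at its log2 difference from the parental line (vertical axis), filled where the adjusted p was below 0.05, and a black line at the list median. The 10 ATF4 response genes have medians of 0.14, 0.21, 0.38 and 0.11 from the top panel down, and no eIF2 control gene is filled in any panel.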

How the data were processed

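The authors deposited a table of linear intensities per probe set for 10 arrays. Per the labels' protocols, oligo-dT primed cDNA was transcribed into biotin cRNA and stained with streptavidin-phycoerythrin. The summarisation, background correction and scaling of probes are not given in the sources used here. P-values reflect the spread between arrays of a line alone, possibly technical, and 2 arrays per line limit the precision. No arrays were identical.

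Of 45101 probe sets 64 controls were left out. Values of log2(intensity + 16) were used without further normalization, since array medians differed by at most 0.0623 on that log2 scale. A probe set was tested if above the table median of 30.5 on at least 2 arrays (25061 probe sets). Platform annotation gave 34958 probe sets 1 symbol, 932 several and 9211 none. All 10 genes matched RefSeq (GRCm38.p6). The arrays' annotation names no genome build, so RefSeq served only for names, chromosomes and promoter sequences.

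limma 3.58.1 (R 4.3.3, statmod 1.5.0) fitted 5 line means (5 residual and 9.92 prior degrees of freedom, intensity trend) for each subclone, for their mean, and for a moderated F test over 3 contrasts between subclones. Tagged arrays were also set against parental with the line as a random block (correlation 0.211). Benjamini-Hochberg adjustment at 0.05 ran over all tested probe sets. With an array left out, its line's lone array is taken to vary as other lines do. Fits were tested on simulated data. Figures used Python 3.11.15 and matplotlib 3.10.9.

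Every probe set of the 10 genes was read, with the brightest as the main one. Of 7 pathway lists, counts are given, with values for at most 5 genes of each with the smallest F test p against the parental line, and the 6 genes most like Asns are named. Called genes outside this rule are said to be. The genes and lists were chosen with earlier results of these data known. Arrays with the same number in different lines did not deviate together (correlations of -0.16 to 0.18, 1 of 10 pairs of lines over 0.1), so the numbers do not pair them. Alternatives covered the pseudocount (1 or 64), normalization, filter, variance model, replicate block, probe set, and arrays or subclones left out. Leaving out parental 2 and FBB1.5 1 together was chosen after seeing the data. A marker gene is not reported here.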

Additional observations from a re-analysis of the deposited data

Results flagged for a closer look

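For 3 of the 10 genes the 4 subclones differed from each other, by a moderated F test over 3 contrasts between subclones in limma. Log2 differences given here are from the parental line. Ddit3 had an adjusted p of 0.001 in this F test, with log2 differences of -0.52, 0.16, 0.29 and -0.14 in the subclones by rising number (FBB1.5 first, FBB1.11 last). Asns had an adjusted p of 0.0059 in the F test of limma, with 0.21, 0.40, 0.49 and 0.10. Trib3 had an adjusted p of 0.042 in the F test of limma, with 0.07, 0.02, 0.41 and 0.02. No gene of the 10 had a single tagged array far from the other 7.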

How the results depend on the processing

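No called difference of the 10 genes changed sign in 356 alternative values, but many of these values could not change sign. For a subclone against parental, the filter, intensity trend, array weights and replicate block leave the difference as it was. So does leaving out an array of another line. The total of 356 is therefore no measure of how firm the signs are. The counts of called genes (4, 3, 5 and 0 in the subclones by rising number, 4 for the mean, 3 in the F test) did depend on the settings, and the cause was not tested. Without the intensity trend every count was 0. Without the intensity filter they were 0, 1 and 2 in FBB1.5, FBB1.7 and FBB1.10. Quantile normalization and median centring each gave 2 in FBB1.5 and 3 in FBB1.10, and array weights gave 1 in FBB1.5. Leaving out 1 array gave 0 to 4 in FBB1.5, 1 to 3 in FBB1.7, 1 to 5 in FBB1.10, 3 to 4 for the mean and 2 to 4 in the F test. Without parental 2 and FBB1.5 1 together, FBB1.5 had 1 (Atf4). Tagged against parental gave 0 with the line as a block and 4 by the fit of 5 line means. The replicate block gave the same counts, 4, 3, 5, 0, 4, 0 and 3.

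Sign changes came in 59 of 989 alternative values of differences that had not passed, with neither value called. Many of the 989 likewise repeat the main difference. Values below are log2 differences. Quantile normalization turned Phgdh to -0.032, -0.153, -0.041 and -0.104 in the subclones by rising number, and to -0.082 for the mean and for tagged. Median centring turned Phgdh to -0.015 in FBB1.7 and -0.021 in FBB1.11, Trib3 to -0.006 and -0.009 there, and Sesn2 to -0.020 in FBB1.10. Other probe sets gave Sesn2 -0.301, -0.045 and -0.061 in FBB1.5, FBB1.10 and FBB1.11 and -0.148 for the mean. They gave Trib3 -0.031, -0.053 and -0.136 in FBB1.5, FBB1.7 and FBB1.11. For Phgdh in FBB1.7 they gave -0.012, -0.079 and -0.010, with -0.023 in FBB1.10 and -0.006 in FBB1.11. They gave -0.064 for Slc1a4 and -0.001 for Asns in FBB1.11, and -0.00013 for Ddit3 in FBB1.10. Leaving FBB1.5 out gave Ddit3 0.102 for the mean and for tagged, and leaving FBB1.11 out gave Sesn2 -0.0001. Without parental 2 and FBB1.5 1 together, Ddit3 was 0.054 for the mean and 0.103 for tagged, and Sesn2 -0.087 in FBB1.10, -0.058 for the mean and -0.066 for tagged.

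With 1 array left out, the differences whose sign changed ranged as follows. Phgdh ran from -0.060 to 0.199 in FBB1.5, -0.116 to 0.143 in FBB1.7, -0.015 to 0.244 in FBB1.10, -0.125 to 0.134 in FBB1.11, and -0.079 to 0.180 for the mean and tagged. Trib3 ran from -0.018 to 0.158 in FBB1.5, -0.065 to 0.111 in FBB1.7 and -0.071 to 0.105 in FBB1.11. Sesn2 ran from -0.018 to 0.179 in FBB1.5, -0.191 to 0.006 in FBB1.7, -0.087 to 0.111 in FBB1.10, and -0.070 to 0.128 for the mean and tagged. Slc7a11 ran from -0.128 to 0.301 in FBB1.5 and -0.069 to 0.360 in FBB1.11, Atf4 from -0.025 to 0.307 in FBB1.11, and Ddit3 from -0.183 to 0.074 for the mean and tagged. The lowest or highest of each came without a parental array.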
